A study of Mus musculus with 24 samples.

Results

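Protocadherins are the largest branch of the cadherin superfamily of calcium-dependent cell adhesion proteins. The clustered genes, Pcdha, Pcdhb and Pcdhg, lie side by side on the chromosome, each with its own promoter, and a cell uses a few of them, so that combinations of the proteins mark single cells, best known from neurons. The non-clustered genes, Pcdh and a number, are scattered over the genome and are split into delta-1 and delta-2 groups by their cytoplasmic tails. They act in cell sorting, movement and boundary formation in early embryos, in which they are known from somites, neural crest derivatives and brain.

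All genes of the deposited count table whose mouse symbol begins with Pcdh were taken, with no use of their values, which gave 70 of 26611 genes. They comprise 14 Pcdha genes (12 variable genes and the C-type genes Pcdhac1 and Pcdhac2), 22 Pcdhb genes, 22 Pcdhg genes (12 gamma-A, 7 gamma-B and the C-type genes Pcdhgc3, Pcdhgc4 and Pcdhgc5) and 12 non-clustered genes. The gamma-B gene Pcdhgb8 is annotated as a transcribed pseudogene in RefSeq. The non-clustered genes are the delta-1 genes Pcdh1, Pcdh7, Pcdh9 and Pcdh11x, the delta-2 genes Pcdh8, Pcdh10, Pcdh17, Pcdh18 and Pcdh19, and the remaining Pcdh12, Pcdh15 and Pcdh20. All 58 clustered genes, and Pcdh1 and Pcdh12, lie on chromosome 18.

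Polyadenylated RNA of the 1st and 2nd pharyngeal arches, the outgrowths that form the jaws and ear, was sequenced from female C57BL/6 embryos at E10.5, in 24 libraries. There were 4 biological replicates for each of 6 genotypes: Kat6a_Homo (Kat6a -/-, Dlx5 +/+), Kat6a_Het (Kat6a +/-, Dlx5 +/+), Dlx5_Homo (Kat6a +/+, Dlx5 -/-), Dlx5_Het (Kat6a +/+, Dlx5 +/-), Kat6a_Het_Dlx5_Het (Kat6a +/-, Dlx5 +/-) and WT (+/+ at both genes). The sources used here do not say whether a library held 1 embryo or several. Kat6a (Moz) codes for an enzyme that acetylates histones, Dlx5 for a homeobox protein that patterns the lower jaw, and the study asks what their single and joint deletion does in craniofacial development. Embryos came from 2 mouse facilities, labelled as batches: all Kat6a_Homo and all WT libraries were of batch 2, all Dlx5_Homo libraries of batch 1, and replicate 4 of Kat6a_Het and of Dlx5_Het and replicates 2 to 4 of Kat6a_Het_Dlx5_Het were of batch 1.

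Library totals ran from 10.4 to 28.2 M counts, and all but 1 library (WT replicate 1) lay at or below 16.7 M. Kat6a itself was not lower in the libraries labelled Kat6a_Homo (228 ± 15 CPM against 202 ± 41 CPM in WT, SD, n = 4 each, log2 fold change 0.17, adjusted p = 0.474). Dlx5 averaged 62.6 ± 5.1 CPM in the libraries labelled Dlx5_Homo and 69.4 ± 6.8 CPM in WT (SD, n = 4 each). This lower mean did not remain with the batch term (log2 0.03, adjusted p = 0.947), and gene-level counts do not check these labels. The deleted exons are not named in those sources, and the homozygous groups are named below as their libraries are labelled. Levels are CPM, the counts of a gene per 1 M counts of the library after TMM scaling, fold changes and adjusted p-values come from edgeR's quasi-likelihood test with a batch term over all 14506 tested genes, and calls were made where p after Benjamini-Hochberg adjustment was under 0.05. In bulk RNA fewer cells of a type and less RNA per cell cannot be told apart.

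Of the 70 genes, 45 passed the filter on low counts: 1 Pcdha gene (Pcdhac2), 11 Pcdhb genes, all 22 Pcdhg genes and 11 non-clustered genes (all but Pcdh15). Among them 1 gene fell and 1 rose, both in Kat6a_Homo against WT. The gene that fell was Pcdh8, also known as paraxial protocadherin, which acts in the segmentation of the paraxial mesoderm in mouse and in gastrulation movements in frog. The gene that rose was Pcdhga2, a gamma-A gene. No protocadherin was called in Kat6a_Het, Dlx5_Homo, Dlx5_Het or Kat6a_Het_Dlx5_Het against WT.

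The promoters of the delta-2 genes are shown first, because the called gene Pcdh8 belongs to that group and because its upstream sequence differs from theirs. Promoter sequences of 9 non-clustered genes on other chromosomes than 18 were matched by symbol in a RefSeq table of GRCm38.p6. For Pcdh8, Pcdh10 and Pcdh17 the 250 bases before the start do not overlap the gene's annotated transcripts, and they are given 5′ to 3′ on the gene's strand. Capitals mark motifs that were picked after the sequences had been seen. The CCAAT box was searched on either strand and reads ATTGG here. The second motif, TATAAA, was searched on the gene's strand only. The octamer ATGCAAAT was searched on either strand, and in the Pcdh8 window its reverse complement is found.
Pcdh8, chr14:79771313-79771562, minus strand: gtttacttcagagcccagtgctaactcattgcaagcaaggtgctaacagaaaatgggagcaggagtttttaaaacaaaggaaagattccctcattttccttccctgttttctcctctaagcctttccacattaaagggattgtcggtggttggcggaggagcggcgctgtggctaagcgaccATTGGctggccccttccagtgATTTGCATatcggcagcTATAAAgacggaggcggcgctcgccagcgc
Pcdh10, chr3:45378148-45378397, plus strand: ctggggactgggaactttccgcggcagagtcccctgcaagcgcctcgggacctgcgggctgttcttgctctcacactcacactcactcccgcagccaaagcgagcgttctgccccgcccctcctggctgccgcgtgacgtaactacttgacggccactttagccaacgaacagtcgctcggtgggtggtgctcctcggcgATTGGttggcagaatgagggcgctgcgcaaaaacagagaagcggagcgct
Pcdh17, chr14:84443313-84443562, plus strand: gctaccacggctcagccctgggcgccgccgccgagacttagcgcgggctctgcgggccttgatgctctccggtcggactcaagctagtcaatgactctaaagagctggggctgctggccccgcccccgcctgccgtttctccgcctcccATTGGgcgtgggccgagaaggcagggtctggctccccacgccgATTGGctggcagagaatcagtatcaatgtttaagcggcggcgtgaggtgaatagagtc

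All 5 delta-2 promoters held ATTGG on the gene's strand, 68 bases before the start in Pcdh8, 50 in Pcdh10, 58 and 101 in Pcdh17, 32 in Pcdh18 and 65 in Pcdh19. The Pcdh18 and Pcdh19 windows run from the RefSeq start and overlap the end of the gene as GENCODE places it, and the Pcdh18 match lies inside that gene. The box, on either strand, was also in the Pcdh9, Pcdh15 and Pcdh20 windows, so that only Pcdh7 of the 9 genes lacked it. CCAAT on either strand was found in 33.8% of all 32851 promoters over the same 250 bases. Of these 5 promoters, that of Pcdh8 alone held TATAAA, 30 bases before the start, a motif found in 7.59% of all promoters, and the octamer, 47 bases before the start, found in 1.60%. Among the other non-clustered genes with a sequence, TATAAA was also found in Pcdh15. CpG dinucleotides numbered 11 in the Pcdh8 window, against 22 in Pcdh10, 21 in Pcdh17, 23 in Pcdh18 and 16 in Pcdh19, and the median over all promoters was 6. TAATTA, a core letter string of homeodomain sites, was in none of the 9 windows and in 4.84% of all promoters. These are matches of letters in 1 window, not mapped sites.

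Pcdh8 (Entrez gene 18530, chromosome 14, 79766772 to 79771312 on the minus strand of GRCm38) was the tested protocadherin with the largest log2 fold change in size in any of the 5 comparisons with WT. It had 0.227, 0.170, 0.172 and 0.705 CPM in Kat6a_Homo libraries, against 2.65, 2.29, 1.04 and 1.85 CPM in WT libraries. Every Kat6a_Homo library lay below every WT library, although replicate 4 of Kat6a_Homo stood well above the other 3. The log2 fold change was −2.65 (SE 0.38, adjusted p = 0.000186), a level 0.160 of that in WT. These levels rest on 3, 2, 2 and 8 counts in Kat6a_Homo and on 74, 28, 12 and 22 counts in WT. The ratio of the summed counts per scaled total, 15 counts against 136, was 0.146 with an exact 95% interval of 0.0796 to 0.249, which covers counting error only.

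In the other genotypes Pcdh8 was not called. Kat6a_Het libraries had 0.787, 1.27, 1.39 and 0.622 CPM, a mean of 1.02 ± 0.37 CPM against 1.96 ± 0.70 CPM in WT (SD, n = 4 each), and the log2 fold change was −0.90 (SE 0.32, unadjusted p = 0.00941, adjusted p = 0.291). Kat6a_Het_Dlx5_Het libraries had 0.913, 0.869, 1.02 and 1.16 CPM (log2 −0.74, SE 0.40, adjusted p = 0.428). Both heterozygous Kat6a groups overlapped WT only through its lowest library, at 1.04 CPM. Dlx5_Homo libraries, at 0.920, 1.63, 1.98 and 1.37 CPM, and Dlx5_Het libraries, at 2.05, 2.85, 2.21 and 1.79 CPM, overlapped WT (log2 −0.09 and 0.22). By mean level the order was Kat6a_Homo, Kat6a_Het_Dlx5_Het (0.989 ± 0.129 CPM), Kat6a_Het, Dlx5_Homo (1.48 ± 0.45 CPM), WT and Dlx5_Het (2.22 ± 0.45 CPM). Of the neighbours in that order, Kat6a_Homo and Kat6a_Het_Dlx5_Het did not overlap, and the ranges of each other pair did. The non-additive part of Kat6a_Het_Dlx5_Het, its value minus both single heterozygotes plus WT, was −0.06 for Pcdh8 (SE 0.47, adjusted p = 0.987).

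**Figure D1:**
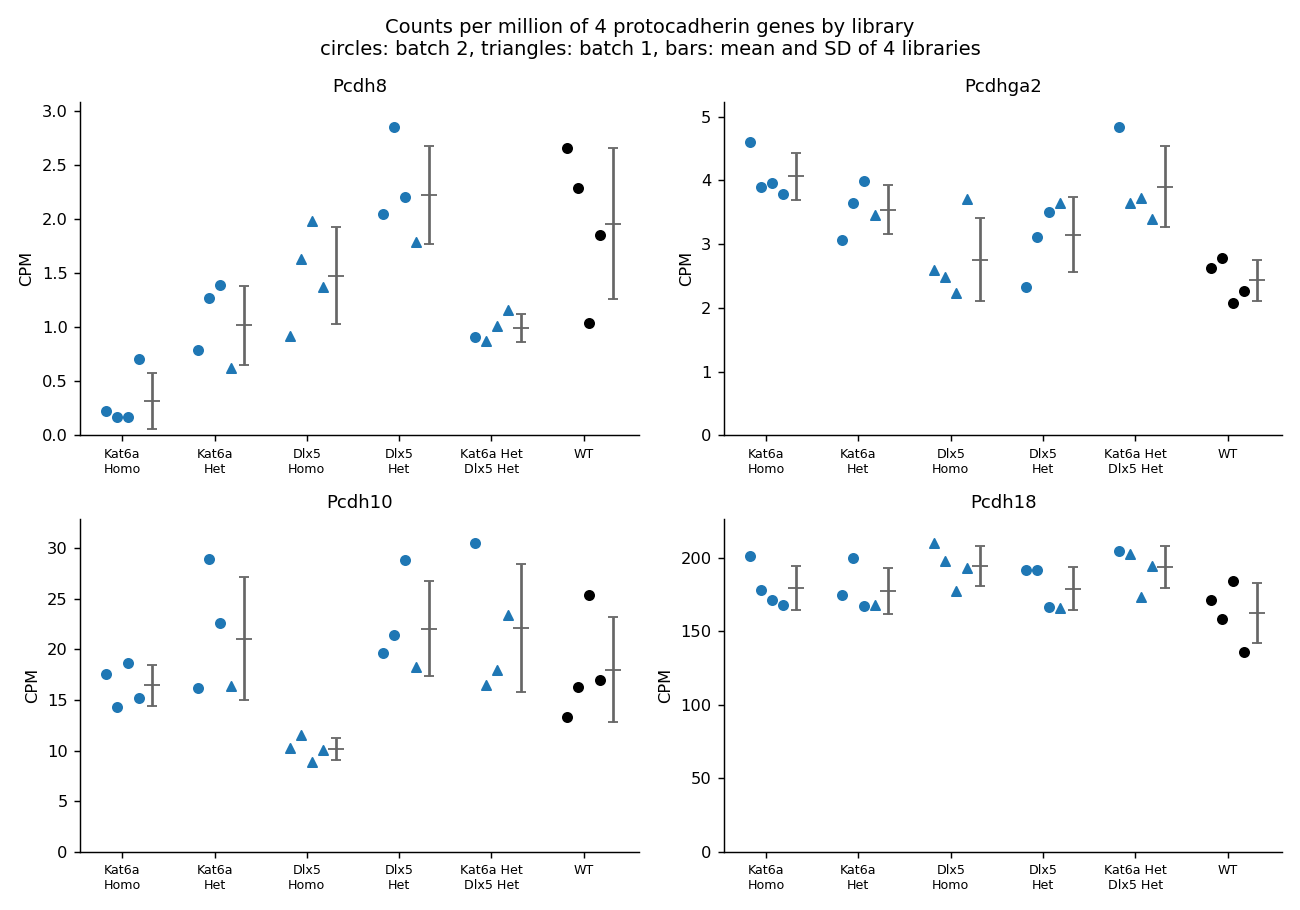
CPM of Pcdh8, Pcdhga2, Pcdh10 and Pcdh18 in each library, by genotype, with circles for batch 2, triangles for batch 1 and the mean and SD of 4 libraries beside them. All 4 Kat6a_Homo libraries lie below the WT libraries for Pcdh8 (0.170 to 0.705 against 1.04 to 2.65 CPM) and above them for Pcdhga2.

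Several markers of the neural tube and brain also fell in Kat6a_Homo. Of 14 listed markers, 9 were tested and 4 fell in Kat6a_Homo, namely the regional transcription factor genes Six3 (log2 −2.62), En2 (−2.31), Emx2 (−1.48) and Gbx2 (−1.43), with a list median of −0.63. Fold changes were negative for 7 of the 9 tested markers and positive for 2. The list median was −0.43 in Kat6a_Het, −0.71 in Dlx5_Homo and −0.20 in Dlx5_Het with 0 calls in each, and −0.47 in Kat6a_Het_Dlx5_Het with 1 call, Six3 (log2 −1.99). The Dlx5_Homo median comes from the fit with the batch term, and all Dlx5_Homo libraries were of batch 1. Unadjusted for batch, the Dlx5_Homo libraries overlapped WT, with summed levels of 186 to 201 CPM and mean scores of −0.08 to 0.22. The summed level of all 14 was 152 to 169 CPM in Kat6a_Homo libraries and 190 to 233 CPM in WT libraries, with no marker at 0 in every library. Their mean score did not overlap between Kat6a_Homo (−0.66 to −0.30) and WT (0.21 to 0.52). Of the other 8 marker lists, the muscle core score was also apart, at −0.41 to −0.17 in Kat6a_Homo and 0.04 to 0.21 in WT, with a list median of −0.53 and 1 of 7 tested markers fallen, the transcription factor gene Msc (log2 −0.93). Of 18 tested neuron markers 16 had negative fold changes in Kat6a_Homo (median −0.38) and 0 were called, and the neuron scores overlapped WT. The part of these markers in the Pcdh8 result was not tested beyond the fits given here. With the neural tube score as a covariate, a fit added after seeing the data, the Pcdh8 estimate was −1.83 (log2, SE 0.88, adjusted p = 0.869). Since the score separates the groups, genotype and score cannot be told apart in that fit. Within groups, the slope of Pcdh8 on none of 9 marker scores was called, and on the neural tube score 0% of all genes were called. For paraxial mesoderm, where Pcdh8 is best known, none of the 5 tested markers of 10 was called, and their summed level was 11.2 to 13.9 CPM in Kat6a_Homo and 10.3 to 19.4 CPM in WT. An antisense lncRNA gene, Gm9748, runs across the Pcdh8 start in GENCODE and RefSeq. Of the 4538 exon bases of Pcdh8 in GENCODE, 4102 lie in exons of no other gene. Since no source used here states whether counting used strand, reads from Gm9748 and Pcdh8 cannot be told apart in bases they share.

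Pcdhga2 (Entrez gene 93710, chromosome 18, 37668927 to 37841870) had 4.6, 3.90, 3.96 and 3.79 CPM in Kat6a_Homo libraries, against 2.62, 2.78, 2.08 and 2.27 CPM in WT libraries. The groups did not overlap, and the log2 fold change was 0.73 (SE 0.18, adjusted p = 0.0335), 1.66 times the WT level. Kat6a_Het libraries had 3.06, 3.64, 3.99 and 3.46 CPM and Kat6a_Het_Dlx5_Het libraries 4.84, 3.65, 3.72 and 3.39 CPM. Both groups also lay wholly above WT, without a call (log2 0.54, adjusted p = 0.277, and log2 0.71, adjusted p = 0.129). Dlx5_Homo libraries had 2.59, 2.49, 2.23 and 3.71 CPM and Dlx5_Het libraries 2.33, 3.12, 3.50 and 3.64 CPM, and both overlapped WT. These comparisons share the same 4 WT libraries, whose Pcdhga2 levels were the lowest group mean of the 6 (2.44 ± 0.32 CPM, SD, n = 4). The call is near the threshold: it was lost when WT replicate 2, 3 or 4 or any Kat6a_Homo replicate was left out (adjusted p 0.0523 to 0.128), with voom (0.0686), in batch 2 alone (0.0805), with only Kat6a_Homo and WT in the fit (0.109) and without the neuron-rich replicates 2 of 4 groups (0.104). With the neural tube score as a covariate in edgeR the estimate was 0.99 (log2, SE 0.43, adjusted p = 0.843). As said above, that fit cannot tell genotype from score.

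Across the tested protocadherins, 2 of 45 were called in Kat6a_Homo, where 1.53% of all tested genes were called. Of all tested genes 1.06% fell, as did 1 of the 45, and 0.469% rose, as did 1 of the 45. At an unadjusted p under 0.05 there were 9 of the 45, of which 5 were Pcdhb genes. The share of all tested genes under that unadjusted threshold was not computed, so these counts have no background to be read against. By class, 0 of 1 Pcdha gene, 0 of 11 Pcdhb genes, 1 of 22 Pcdhg genes and 1 of 11 non-clustered genes were called. Median log2 fold changes were 0.57 for the Pcdhb genes, 0.13 for the Pcdhg genes and 0.14 for the non-clustered genes, against 0.01 over all tested genes. Within the delta-2 group Pcdh8 stood apart from Pcdh17 (log2 0.14), Pcdh18 (0.15), Pcdh10 (−0.11) and Pcdh19 (−0.27), none of which was called. Pcdh19, an X-linked gene whose human variants cause an epilepsy, had 38.6, 33.0, 35.2 and 31.7 CPM in Kat6a_Homo and 46.1, 42.2, 49.4 and 28.7 CPM in WT. It was called with gene-length-corrected offsets alone (log2 −0.36, adjusted p = 0.0230), and the WT range spans that of Kat6a_Homo.

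**Figure D2:**
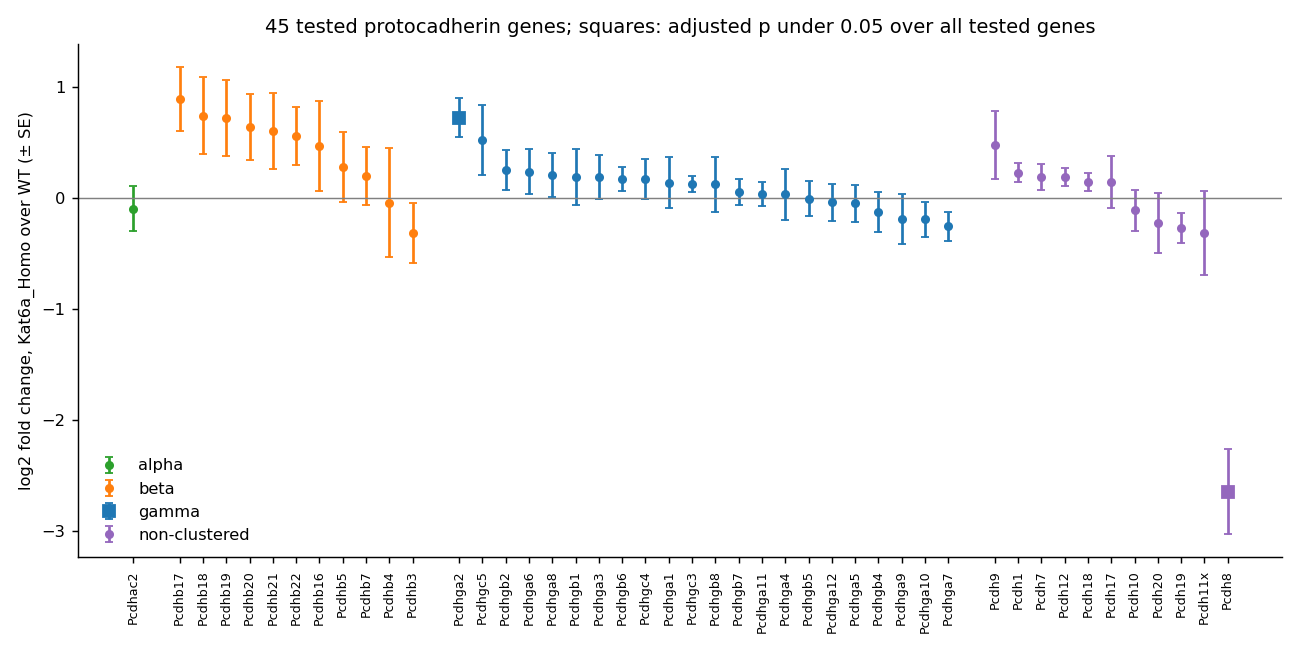
Log2 fold change with SE of the 45 tested protocadherin genes in Kat6a_Homo over WT, ordered within class, with squares for an adjusted p under 0.05. Pcdh8, at −2.65, and Pcdhga2, at 0.73, are the called genes, and the 7 tested Pcdhb genes from Pcdhb16 to Pcdhb22 all lie above 0.

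In the other comparisons the counts were 0 of 45 throughout, where 0% of all tested genes were called in Kat6a_Het, 0.0551% in Dlx5_Homo (0.0276% higher and 0.0276% lower), 0% in Dlx5_Het, 0.448% in Kat6a_Het_Dlx5_Het (0.296% higher and 0.152% lower) and 0.00689% for the non-additive part. At an unadjusted p under 0.05 there were 5, 2, 5, 6 and 1 of the 45 in these comparisons, in the same order. For these counts too, no share over all tested genes was computed. DESeq2 and voom called none of the 45 in these comparisons either. The number of tested protocadherins whose 4 libraries all lay outside the range of the 4 WT libraries was 4 in Kat6a_Homo, 2 in Kat6a_Het, 3 in Dlx5_Homo, 4 in Dlx5_Het and 4 in Kat6a_Het_Dlx5_Het. Over all tested genes that share was 6.4%, 3.01%, 4.6%, 3.61% and 6.11% in the same order of genotypes. For the 45 protocadherins between batch 1 and batch 2, in which 0.0345% of all genes were called (0.0138% higher and 0.0207% lower in batch 1), 0 were called and 1 (Pcdh10, log2 −0.49) had an unadjusted p under 0.05.

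The Pcdhb genes, each a single coding exon, were the class with the highest median fold change in all 5 mutant genotypes, although no single gene was called. Their summed level was 13.6 to 20.2 CPM in Kat6a_Homo, 11.6 to 17.1 in Kat6a_Het, 13.7 to 19.6 in Dlx5_Homo, 16 to 17.8 in Dlx5_Het, 15 to 18.9 in Kat6a_Het_Dlx5_Het and 10.7 to 15.4 CPM in WT. Only the Dlx5_Het range lay wholly above that of WT. Of the 11 tested genes, 9 had a positive log2 fold change in Kat6a_Homo, 6 in Kat6a_Het, 11 in Dlx5_Homo, 9 in Dlx5_Het and 11 in Kat6a_Het_Dlx5_Het, all measured against the same WT libraries and none called. Over all genes tested, 48.2%, 47.3%, 50.5%, 47.7% and 48.3% had a negative fold change in these comparisons.

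Pcdhb17 (chromosome 18, 37485021 to 37488290) had 2.42, 1.70, 3.19 and 1.32 in Kat6a_Homo, 1.57, 2.06, 2.86 and 2.31 in Kat6a_Het, 2.26, 1.8, 1.82 and 2.18 in Dlx5_Homo, 2.23, 1.78, 2.39 and 2.57 in Dlx5_Het, 1.92, 2.43, 1.44 and 2.65 in Kat6a_Het_Dlx5_Het and 0.896, 0.654, 1.64 and 1.60 CPM in WT. All Dlx5_Homo and all Dlx5_Het libraries lay above every WT library, and the other groups overlapped WT. These levels were not adjusted for batch, and all Dlx5_Homo libraries were of the other batch than WT. With the batch term the log2 fold change of Pcdhb17 was 0.89 in Kat6a_Homo, 0.87 in Kat6a_Het, 0.61 in Dlx5_Homo, 0.90 in Dlx5_Het and 0.72 in Kat6a_Het_Dlx5_Het, with adjusted p from 0.135 to 0.606. Pcdhb22, the last gene of the cluster and the most abundant per length, had 3.25, 1.70, 3.01 and 2.03 in Kat6a_Homo, 1.49, 3.09, 2.08 and 1.69 in Kat6a_Het, 2.18, 2.83, 2.31 and 3.06 in Dlx5_Homo, 2.23, 3.39, 2.58 and 2.87 in Dlx5_Het, 2.74, 3.56, 2.29 and 4.14 in Kat6a_Het_Dlx5_Het and 1.47, 1.88, 2.25 and 1.26 CPM in WT. The Kat6a_Het_Dlx5_Het libraries all exceeded the WT libraries (log2 0.90, SE 0.32, adjusted p = 0.205), and the other groups overlapped WT. Pcdhb20 had 1.43, 1.53, 1.89 and 0.881 in Kat6a_Homo, 0.525, 0.870, 0.955 and 0.888 in Kat6a_Het, 1.17, 1.20, 0.660 and 1.29 in Dlx5_Homo, 1.67, 0.891, 1.56 and 0.657 in Dlx5_Het, 1.10, 1.82, 1.19 and 1.41 in Kat6a_Het_Dlx5_Het and 0.896, 0.818, 0.951 and 1.01 CPM in WT. Here too only the Kat6a_Het_Dlx5_Het libraries lay wholly above WT (log2 0.71, adjusted p = 0.428), and the log2 fold change in Kat6a_Homo was 0.64 (adjusted p = 0.336). Pcdhb5 had the largest positive value of the class, a log2 fold change of 1.18 in Dlx5_Het (SE 0.30, unadjusted p = 0.000622, adjusted p = 0.217).

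In Kat6a_Homo the fold changes differed by place in the Pcdhb cluster, an arrangement noticed in the data and not tested. The 7 tested genes at places 16 to 22 had log2 fold changes of 0.47 to 0.89, and the 4 tested genes at places 3 to 7 had −0.32 to 0.29. In Kat6a_Het_Dlx5_Het the ranges were 0.24 to 0.90 and 0.08 to 0.70, in Dlx5_Homo 0.35 to 0.61 and 0.14 to 0.63, in Kat6a_Het −0.13 to 0.87 and −0.35 to 0.39, and in Dlx5_Het −0.34 to 0.90 and −0.01 to 1.18. The sets overlapped in every genotype but Kat6a_Homo.

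**Figure D3:**
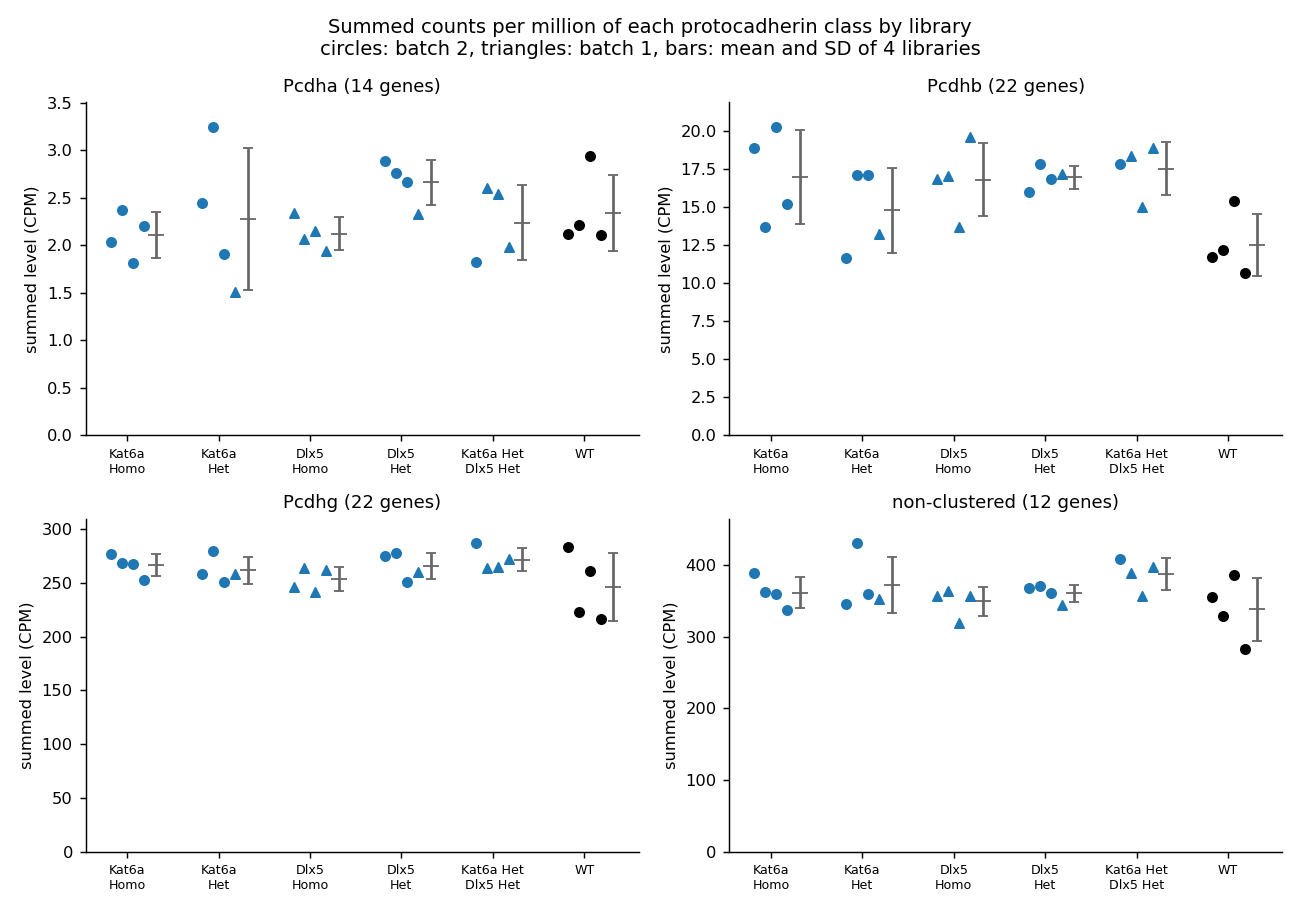
Summed CPM of the 14 Pcdha, 22 Pcdhb, 22 Pcdhg and 12 non-clustered genes in each library, by genotype, with the mean and SD of 4 libraries. The Pcdhb sums are 13.6 to 20.2 CPM in Kat6a_Homo and overlap those of WT, at 10.7 to 15.4 CPM. Only Dlx5_Het, at 16 to 17.8 CPM, lies wholly above WT in that panel, and every group overlaps WT in the other panels.

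The class sums span a wide range of levels. Over the 6 genotypes the group means of the summed levels were 2.11 to 2.66 CPM for Pcdha, 12.5 to 17.5 CPM for Pcdhb, 246 to 272 CPM for Pcdhg and 338 to 388 CPM for the non-clustered genes. The counts behind them were 17 to 59 per library for all Pcdha genes together, 127 to 326 for Pcdhb, 2569 to 7892 for Pcdhg and 3357 to 9919 for the non-clustered genes. All 22 Pcdhg genes and 11 of 12 non-clustered genes had a count in every library, as did 14 of 22 Pcdhb genes and 1 of 14 Pcdha genes. Between genes, levels are compared below as CPM per kb of the deposited gene length, averaged over the 24 libraries.

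In each class 1 gene led. Pcdhgc3 (chromosome 18, 37806410 to 37841873), a C-type gene, reached 33.5 CPM per kb, ahead of Pcdhgb6 at 3.15 and Pcdhga11 at 2.54. It held 55.7% to 63.2% of the summed Pcdhg CPM in every library. It had 173, 168, 161 and 153 in Kat6a_Homo, 163, 168, 143 and 155 in Kat6a_Het, 152, 166, 148 and 160 in Dlx5_Homo, 164, 168, 140 and 148 in Dlx5_Het, 169, 157, 157 and 161 in Kat6a_Het_Dlx5_Het and 175, 133, 153 and 136 CPM in WT. All groups overlapped WT, and the log2 fold changes lay between 0.07 in Dlx5_Het and 0.16 in Kat6a_Het_Dlx5_Het. The other C-type Pcdhg genes were far lower, Pcdhgc4, needed for neuron survival in mouse, at 0.885 CPM per kb and Pcdhgc5 at 0.295. Pcdhgb6 had 15.5, 11.9, 17.9 and 14.8 in Kat6a_Homo, 14.3, 14.9, 15.5 and 15.5 in Kat6a_Het, 14.5, 11.7, 12.7 and 12.9 in Dlx5_Homo, 16.8, 18.4, 15.3 and 15.9 in Dlx5_Het, 18.1, 14.5, 14.9 and 14.9 in Kat6a_Het_Dlx5_Het and 13.5, 13.8, 14.8 and 11.2 CPM in WT. Only in Dlx5_Het did all libraries lie above WT, without a call (log2 0.34, SE 0.11, adjusted p = 0.256). Pcdhga11 had 12.1, 12.2, 10.1 and 12.9 in Kat6a_Homo, 11, 13.3, 10.8 and 12.3 in Kat6a_Het, 10.9, 11.3, 11.7 and 11.1 in Dlx5_Homo, 15.6, 12.2, 12.8 and 11.9 in Dlx5_Het, 12.2, 11.1, 13.1 and 13.2 in Kat6a_Het_Dlx5_Het and 13.1, 9.98, 12.5 and 10.2 CPM in WT, with every group overlapping WT.

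Pcdhac2, which guides serotonergic axon spacing in mouse, was the only Pcdha gene above the filter. It had 1.59, 2.12, 1.64 and 1.85 in Kat6a_Homo, 2.36, 2.22, 1.74 and 1.42 in Kat6a_Het, 1.67, 1.63, 2.06 and 1.61 in Dlx5_Homo, 2.61, 2.23, 2.39 and 2.03 in Dlx5_Het, 1.28, 2.26, 1.69 and 1.57 in Kat6a_Het_Dlx5_Het and 1.76, 1.8, 2.25 and 1.93 CPM in WT. The groups overlapped WT, with a log2 fold change of −0.10 in Kat6a_Homo (adjusted p = 0.908). It held 66.7% to 96.4% of the summed Pcdha CPM per library, at 0.351 CPM per kb, against 0.0105 for Pcdha12 and 0.0105 for Pcdha9, the next genes. Pcdha12 ranged from 0 to 0.239 CPM and Pcdha9 from 0 to 0.226 CPM over the 24 libraries, with at most 4 and 3 counts in a library, against a floor of 3 counts at 0.108 to 0.279 CPM per library. Pcdha4 had no count in any library. In GENCODE, 2864 of its exon bases also lie in other protocadherin genes, and 2860 of those of Pcdhac2 do, which had 573 counts in all.

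Among the Pcdhb genes, Pcdhb22 (0.806 CPM per kb), Pcdhb17 (0.608) and Pcdhb20 (0.335) were the highest, and Pcdhb1, the first gene, the lowest (0.00101). The 7 genes at places 16 to 22 held more of the class's CPM than the 15 before them. As a description over genes, Spearman's rho between place and CPM per kb was 0.38 for the 22 Pcdhb genes, 0.44 for the 19 variable Pcdhg genes and 0.66 for the 12 variable Pcdha genes. For Pcdhb it was at most 0.43 (Kat6a_Het_Dlx5_Het) and at least 0.25 (WT) in the 6 groups, which are not independent of each other. The Pcdha value rests on genes with few counts and was 0.71 in Dlx5_Het and 0.08 in WT.

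**Figure D4:**
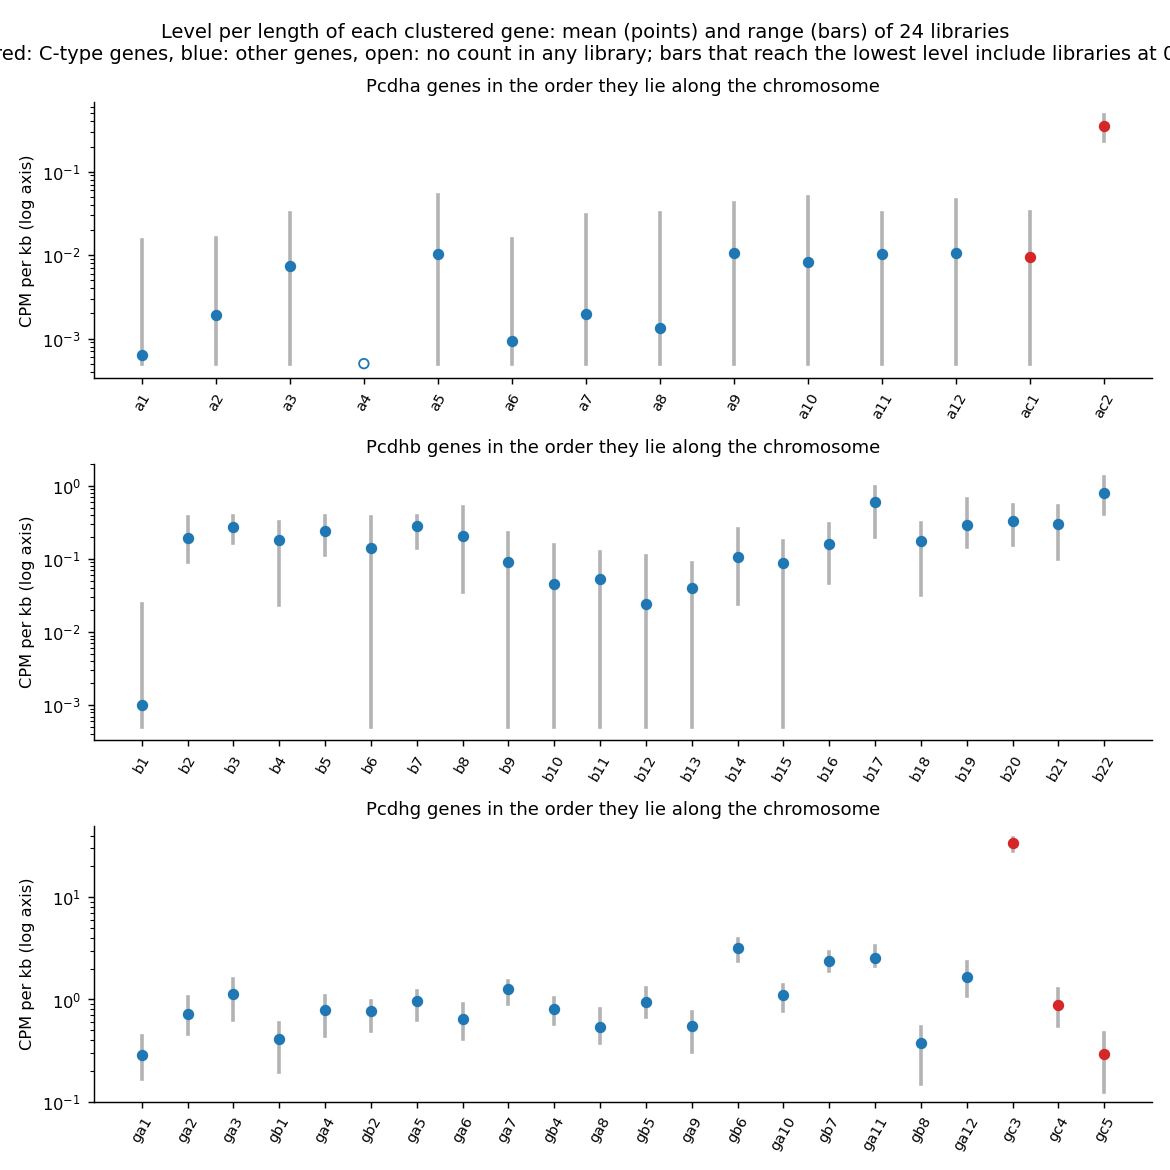
Level per length of every clustered gene, in CPM per kb on a log axis, in the order in which the genes lie on the chromosome, as the mean (point) and range (bar) of 24 libraries. The C-type genes Pcdhac2 (0.351) and Pcdhgc3 (33.5) exceed the other genes of their clusters, and Pcdhb22 (0.806) is the highest Pcdhb gene.

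Shared sequence limits how many reads can be assigned to single Pcdha and Pcdhg genes. Pcdha4 had no count although it shares exon bases with other protocadherin genes. Reads in such bases were thus not counted for every gene that holds them. Levels by the deposited length, and class sums, can therefore be too low for Pcdha and Pcdhg against Pcdhb. Of the 50-base stretches in GENCODE transcripts, a median of 59.3% of a Pcdha gene's, 44.4% of a Pcdhg gene's and 4.26% of a Pcdhb gene's also occurred in another protocadherin, and none of a non-clustered gene's. Pcdhb12 had the largest share of its class, 12%. Counted per kb of exon bases that no other gene shares, the median of the 21 Pcdhg genes other than Pcdhga10, which has no such bases, was 1.28 CPM per kb, against 0.808 by the deposited length. Pcdhgc3 stayed first at 86.3, followed by Pcdhga11 at 9.54, Pcdhgb7 at 5.95 and Pcdhgb6 at 5.75, so the order behind Pcdhgc3 depends on the length used. On that scale Pcdhb17 (0.426) and Pcdhb22 (0.402) changed places at the head of the Pcdhb genes. Pcdh1 (3.28) stood behind Pcdh7 (5.66) and Pcdh19 (3.85) among the non-clustered genes, with Pcdh18 (33.8) still first. That scale uses GENCODE exons, whose lengths differ from the deposited ones, so these changes of order are not an effect of sharing alone. Pcdhb17 has 4660 exon bases in GENCODE, all unshared, against a deposited 3270. Pcdhb22 has 6609, of which 6154 are unshared, against 3067.

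Pcdh18 (chromosome 3, 49743291 to 49757383), a delta-2 gene whose protein binds Dab1 in mouse, was the most abundant non-clustered gene at 35.0 CPM per kb and held 46.3% to 58.9% of their summed CPM. It had 201, 178, 172 and 168 in Kat6a_Homo, 175, 200, 167 and 168 in Kat6a_Het, 210, 198, 177 and 193 in Dlx5_Homo, 192, 191, 167 and 166 in Dlx5_Het, 205, 203, 173 and 194 in Kat6a_Het_Dlx5_Het and 172, 158, 184 and 136 CPM in WT. Every group overlapped WT. The largest fold changes, log2 0.38 in Dlx5_Homo (SE 0.11, unadjusted p = 0.00226, adjusted p = 0.258) and 0.34 in Kat6a_Het_Dlx5_Het (SE 0.10, adjusted p = 0.113), were not called. Without the batch term they were 0.26 and 0.25. The share of Pcdh18 in the non-clustered sum was 54.0% to 58.9% in Dlx5_Homo and 47.8% to 48.2% in WT. These shares were not adjusted for batch, and all Dlx5_Homo libraries were of the other batch than WT. Batch and genotype thus cannot be told apart in them. The share also depends on the levels of the other genes in the sum, such as Pcdh10, given next.

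Pcdh10, which recruits the WAVE complex to cell contacts, had 10.3, 11.5, 8.83 and 10.1 CPM in Dlx5_Homo, 30.5, 16.5, 17.9 and 23.4 CPM in Kat6a_Het_Dlx5_Het and 13.3, 16.3, 25.4 and 17.0 CPM in WT. All Dlx5_Homo libraries lay below WT, but they were of the other batch. The log2 fold change was −0.31 with the batch term (SE 0.26, adjusted p = 0.703) and −0.80 without it, and the batch term itself was −0.49. Within Dlx5_Homo against WT, batch and genotype cannot be told apart from these libraries alone. In Kat6a_Het_Dlx5_Het the log2 fold change was 0.66 (SE 0.22, adjusted p = 0.179), and it was called only without WT replicate 3, the highest WT library (log2 0.86, adjusted p = 0.0408).

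No delta-1 gene was called. Pcdh1, expressed in epithelia, had 32.8, 34.3, 29.7 and 33.0 in Kat6a_Homo, 26.6, 27.1, 31.0 and 32 in Kat6a_Het, 23.4, 28.2, 29.6 and 25.8 in Dlx5_Homo, 28.7, 25.9, 31.4 and 28.7 in Dlx5_Het, 25.9, 30.8, 28.7 and 28.1 in Kat6a_Het_Dlx5_Het and 31.4, 25.4, 28.4 and 24.7 CPM in WT. Its largest log2 fold change was 0.23 in Kat6a_Homo (SE 0.09, unadjusted p = 0.0119, adjusted p = 0.202). Pcdh7, named NF-protocadherin in frog, had 48.5, 49.6, 61.9 and 45.3 in Kat6a_Homo, 36.5, 45.7, 52.0 and 51.9 in Kat6a_Het, 44.9, 47.0, 39.5 and 50.6 in Dlx5_Homo, 46.4, 38.0, 50.7 and 51.8 in Dlx5_Het, 48.6, 49.8, 51.0 and 48.9 in Kat6a_Het_Dlx5_Het and 51.5, 39.4, 49.6 and 38.0 CPM in WT, with a log2 fold change of 0.19 in Kat6a_Homo. Every group overlapped WT for both genes. Pcdh12, known from endothelium, lay wholly above WT in Kat6a_Homo at a small size (log2 0.19, SE 0.08, adjusted p = 0.289). Pcdh9, Pcdh11x and Pcdh20 had 0.194 to 0.252 CPM per kb, and Pcdh15, a component of hair cell tip links, ranged from 0 to 0.446 CPM and was not tested. Of the 25 untested genes, none was called in any comparison in a fit without the filter.

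Pcdh17, a delta-2 gene that acts in axon growth in mouse, was called against the neuron marker score and also against other marker scores. It had 26.1, 29.2, 18.9 and 18.6 CPM in Kat6a_Homo, 17.3, 41.0, 21.7 and 19.2 CPM in Kat6a_Het, 18.2, 22.9, 16.8 and 20.4 CPM in Dlx5_Homo, 17.2, 26.2, 21.3 and 21.6 CPM in Dlx5_Het, 31.4, 25.1, 24.3 and 29.7 CPM in Kat6a_Het_Dlx5_Het and 18, 27.2, 24.2 and 15.5 CPM in WT. Replicate 2 was the highest library of every group but Kat6a_Het_Dlx5_Het. In those 5 groups the same library had the highest score over 18 tested neuron markers, 1.52 in Kat6a_Homo, 2.35 in Kat6a_Het, −1.04 in Dlx5_Homo, 2.08 in Dlx5_Het and 2.16 in WT. In Kat6a_Het_Dlx5_Het, replicate 3 had the highest score (1.73) and the lowest Pcdh17 level. Replicate 1 of that group, at a score of 1.16, had the highest level. In a fit with 6 groups, batch and the score, added after seeing the data, Pcdh17 rose by 0.21 on the log2 scale per unit of score (SE 0.04, adjusted p = 0.000808), where 2.46% of all tested genes were called and no other protocadherin was. It was also called against the crest-derived glia score (0.59 per unit, adjusted p = 0.00267, 2.01% of genes), the paraxial mesoderm score (0.91, adjusted p = 0.000119, 3.11% of genes) and, downward, the epithelium score (−0.73, adjusted p = 0.0443, 28% of genes). These scores and the neuron score were not independent of each other. In WT, Kat6a_Het and Dlx5_Het, replicate 2 had the group's highest neuron, glia and paraxial mesoderm scores and its lowest epithelium score. The Pcdh17 calls are thus not separate associations, and the scores were not tested apart. Pcdh7 rose with the epithelium score (0.44 per unit, adjusted p = 0.00657). No protocadherin was called against the arch mesenchyme (0.0896% of all genes), erythroid (0.62%), muscle core (0.117%), endothelium (0.00689%) or neural tube (0%) scores. Between genotypes Pcdh17 was not called, the largest log2 fold change being 0.56 in Kat6a_Het_Dlx5_Het (adjusted p = 0.405), whose neuron scores were 0.64 to 1.73 against −1.14 to 2.16 in WT.

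**Figure D5:**
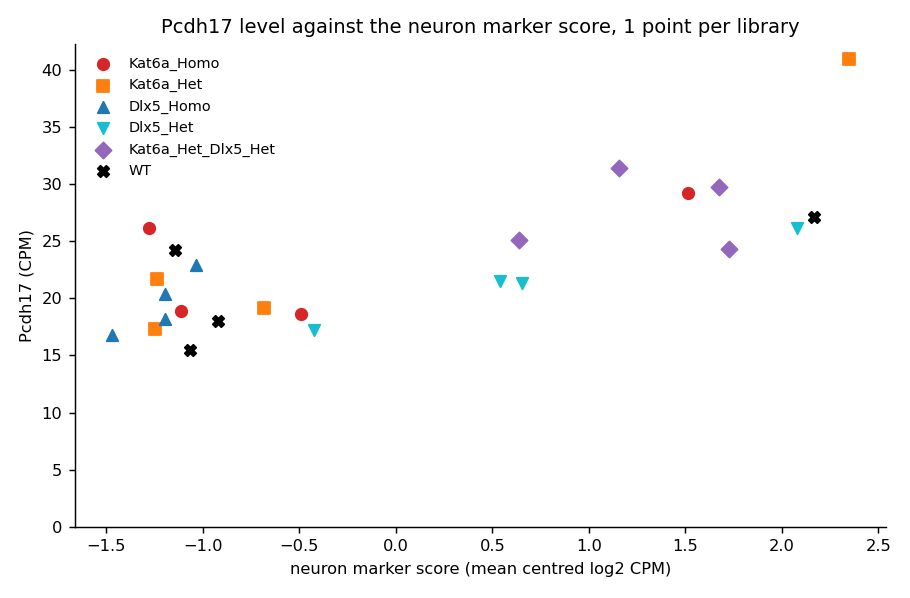
Pcdh17 level in CPM against the neuron marker score, the mean centred log2 CPM of 18 markers, with 1 point per library and a symbol per genotype. The highest point, at 41.0 CPM and a score of 2.35, is replicate 2 of Kat6a_Het.

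Spread between replicates differed by class. The variance of counts within groups was a median of 1.03 times that of counting alone for Pcdha, 1.24 times for Pcdhb, 1.29 times for Pcdhg and 2.30 times for the non-clustered genes, whose counts are higher. The largest ratios were 18 for Pcdh17, 17.2 for Pcdh18, 13.6 for Pcdh10 and 13.6 for Pcdhgc3, and those of the called genes were 1.76 for Pcdh8 and 0.972 for Pcdhga2. For most Pcdha and Pcdhb genes the spread between libraries thus came close to that of counting, and small differences were not detectable at this depth.

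Genes that regulate or partner the protocadherins were not called. Of 22 regulators of the clustered genes (among them Ctcf, the cohesin genes, Smchd1 and Setdb1), all were tested and 0 were called in any of the 5 mutant genotypes, with medians of 0.04, 0.07, 0.12, −0.01 and 0.08 on the log2 scale for Kat6a_Homo, Kat6a_Het, Dlx5_Homo, Dlx5_Het and Kat6a_Het_Dlx5_Het. The 19 cytoplasmic partners, such as the WAVE complex genes, Ptk2 and Ret, gave 0 calls and medians between −0.01 and 0.07. Of 25 classical and other cadherin genes 19 were tested and 0 were called, with medians between −0.11 in Dlx5_Homo and 0.15 in Kat6a_Het. Medians over all genes lay between −0.00195 and 0.00917 in these comparisons. Of all tested genes 1.53%, 0%, 0.0551%, 0% and 0.448% were called, in the order of genotypes given for the regulators. At such shares, 0 calls in lists of this length say little about these genes in particular. Fold changes were positive for 20, 18, 19, 11 and 19 of the 22 regulators in that order, and negative for the others.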

How the data were processed

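RNA of 24 libraries was measured by RNA-seq (TruSeq Stranded mRNA, per the labels' protocols). The authors deposited raw counts per gene, and the submitters' processing notes name CASAVA 1.8.2, featureCounts and mm10. Aligner, annotation, and the strand and overlap settings of counting were not given in the sources used here. The 24 per-sample files held the same values as the columns of the whole table. Of 27179 entries, 568 without a gene ID (0.182% to 0.259% of counts per library) were left out, and 25275 of the remaining IDs were matched to a symbol. Library totals of 10.4 to 28.2 M counts set the precision of low genes, and intervals cover counting error only. No 2 libraries of a group agreed within sampling noise (chi-square over degrees of freedom 2.98 to 23.7), so each was counted as 1 replicate.

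Genes passing filterByExpr were fitted with edgeR 4.0.16 in R 4.3.3 (TMM scaling, robust quasi-likelihood, 6 groups and batch, 24 libraries, residual degrees of freedom 17), with Benjamini-Hochberg adjustment over 14506 genes. CPM were scaled by TMM, and CPM per kb used the deposited gene length. Fold changes are mutant over WT. The test was also run on simulated counts, drawn with the same dispersion for every gene and no batch or cell type differences. That setting is simpler than these data and does not check the test for them. Alternatives were DESeq2 1.42.0, voom in limma 3.58.1, RLE scaling, no filter, a filter of 1 CPM in 12 libraries, leaving the batch term out, fitting batch 2 by itself or each pair of groups by itself, a replicate block, length-corrected offsets, marker scores as covariates and leaving out libraries. Replicate numbers were not used to pair samples in the main fit, and the replicate block covered all groups. The labels do not say that equal numbers pair samples. Deviations of same-numbered mutant and WT samples correlated at 0.162 to 0.654 for Kat6a_Het, 0.0949 to 0.569 for Kat6a_Homo and −0.00786 to 0.522 for Dlx5_Het. In each of these groups the highest value was that of replicate 2. The correlations were −0.105 to 0.137 for Dlx5_Homo and −0.309 to −0.0755 for Kat6a_Het_Dlx5_Het.

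Named with values in every library were the genes called in any comparison and the 3 genes of each class with the highest mean CPM per kb, except Pcdha12 and Pcdha9, which had few counts and are given as ranges. Pcdh10, Pcdh17, Pcdh19 and Pcdhb5 were named after their values were seen. The members, gene lists and tests were chosen with earlier results of these data known.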

Additional observations from a re-analysis of the deposited data

Results flagged for a closer look

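In groups of 4 libraries, a library was listed where its gap to the nearest of the others, as a share of the group's range, passed Dixon's 95% critical value. Chance gives this in about 1 in 20 groups, and 10 of the 108 groups examined (14 genes and the class sums) met it. Pcdh8 was 0.705 CPM in Kat6a_Homo replicate 4, against 0.170 to 0.227 CPM in the other 3, and without that library its log2 fold change was −3.34. The Pcdha sum was 2.94 CPM in WT replicate 3, against 2.10 to 2.21 CPM in the other WT libraries. The non-clustered sum was 430.0 CPM in Kat6a_Het replicate 2 (345 to 360 CPM in the others) and 319 CPM in Dlx5_Homo replicate 3 (356 to 364 CPM in the others). Pcdhgb6 was 18.1 CPM in Kat6a_Het_Dlx5_Het replicate 1, against 14.5 to 14.9 CPM. Pcdhac2 was 2.06 CPM in Dlx5_Homo replicate 3, against 1.61 to 1.67 CPM. Genes at 0 in the other 3 libraries of their group made up 4 of the 10: Pcdha12 in Kat6a_Het replicate 2 (0.158 CPM), Dlx5_Homo replicate 4 (0.0806 CPM) and Kat6a_Homo replicate 2 (0.0848 CPM), and Pcdha9 in Dlx5_Homo replicate 4 (0.161 CPM).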

How the results depend on the processing

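Under the alternatives run, no protocadherin fold change that was called reversed. The 2 protocadherin calls in Kat6a_Homo became 1 with voom, with batch 2 alone, with only the groups compared and with the 4 neuron-rich libraries left out, and 0 with the neural tube score as a covariate (the last pair added after seeing the data). Pcdh8 stayed called in all of these but the last (log2 −3.34 to −2.44 with single libraries left out). Leaving out single libraries gave 1 to 2 protocadherin calls in Kat6a_Homo, 0 to 1 in Kat6a_Het_Dlx5_Het and 0 to 0 in the other comparisons. Over all genes the count in Kat6a_Homo was 222, and 144 with voom, 98 in batch 2, 64 with only the groups compared, 83 without the neuron-rich libraries and 2 with the neural tube score. In Kat6a_Het it was 0, and 80 with DESeq2 and 1 in batch 2. In Dlx5_Homo it was 8, and 38 with DESeq2, 17 with voom, 13 with length offsets, 19 with the neuron score and 4 without the neuron-rich libraries. In Dlx5_Het it was 0, and 31 with DESeq2 and 7 without the neuron-rich libraries. In Kat6a_Het_Dlx5_Het it was 65, and 185 with DESeq2, 132 with voom, 10 without the batch term, 9 in batch 2, 10 with only the groups compared, 12 with the neuron score and 138 without the neuron-rich libraries. Leaving out single libraries gave 122 to 444 in Kat6a_Homo, 0 to 196 in Kat6a_Het, 0 to 16 in Dlx5_Homo, 0 to 1 in Dlx5_Het and 1 to 169 in Kat6a_Het_Dlx5_Het, with the highest values of Kat6a_Homo, Kat6a_Het and Kat6a_Het_Dlx5_Het reached without WT replicate 1. The causes were not tested. With the replicate number as a block, Pcdh8 was −2.68 (adjusted p = 0.000202, edgeR) and Pcdhga2 0.72 (adjusted p = 0.0388), and no protocadherin call changed. The median level of the 21 Pcdhg genes other than Pcdhga10 was 1.28 CPM per kb of unshared exon bases, against 0.808 by the deposited length. For Dlx5_Homo, batch 2 alone was not run, since no such library is of batch 2. Depth limits most Pcdha genes and the Pcdhb genes below the filter.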
